A study of Mus musculus with 32 samples.

Results

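Eci1, Eci2, Decr1 and Ech1 encode the auxiliary enzymes that let cells oxidise unsaturated fatty acids. The 4 genes were taken by symbol, with no threshold on measured values, from a table of 54418 gene identifiers. They were chosen with earlier results of these data known, so their shares beside those of all tested genes are descriptions. All 4 passed the filter on low counts that left 5872 genes for testing.

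Fatty acid oxidation shortens an acyl-CoA in repeated cycles, each of which passes through a trans double bond beside the carboxyl end. Natural unsaturated fats carry cis double bonds in places the cycle cannot use, and the auxiliary enzymes shift or reduce them. Ppara and Ppard encode nuclear receptors that are activated by fatty acids and switch on oxidation genes in liver and muscle, and both have been studied in the intestine. A high-fat diet brings fatty acids to intestinal stem cells, which sit at the crypt base and express the receptor gene Lgr5.

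RNA came from GFP-high intestinal stem cells of C57BL6 mice and was counted by 3' digital gene expression, which reads the 3' ends of polyadenylated transcripts. By its title, the series is about a high-fat diet, fatty acid oxidation and stemness. The 8 groups of 4 libraries were PparDA mice (Ppard-fl/fl and Ppara-null together) on high-fat (HF) and on control diet, PparD mice (Ppard-fl/fl) on HF and control diet, PparA mice (Ppara-null) on HF and control diet, and wild-type (WT) mice on HF and control diet. All groups share the strain, the staining for the epithelial surface protein CD326 and the sort for high GFP. The labels name no Cre driver, age, diet length or GFP allele, so whether and where Ppard was deleted is not given in the sources used here. Nor do they state that the 4 libraries of a group are separate animals, so every p measures the spread between libraries, which may in part be technical.

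The 32 libraries held 612672 to 724155 counts. Library numbers fall into 4 runs of 8 consecutive numbers, each with 1 library of every group. Runs 1 and 3 expressed the female-specific Xist (465 to 928 CPM, counts per 1e+06 scaled by TMM factors) and runs 2 and 4 the Y-linked Ddx3y (14.3 to 38.8 CPM), so sex and run cannot be told apart. Every group thus held libraries of both sexes, which cannot come from 1 animal. Counts of the targeted genes were too few to test the genotype labels. Ppara had 0 to 3 counts in the 8 PparA libraries and 0 to 4 in the 8 PparDA libraries, against 0 to 5 in the 8 WT libraries. Ppard had 1 to 7 counts in the 8 PparD libraries and 1 to 6 in the 8 PparDA libraries, against 1 to 6 in the 8 WT libraries. The stem cell markers Olfm4 (7060 to 13100 CPM) and Lgr5 (28.1 to 64.4 CPM) were present in every library. Of the 6 stromal and endothelial genes listed, Dcn, Col3a1 and Cdh5 were at 0 in all 32, and Col1a1 and Col1a2 in 31. The endothelial gene Pecam1 was present in every library, at 2.96 to 18.6 CPM.

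By position in GRCm38 (mm10, GENCODE release M21), Eci1 (ENSMUSG00000024132) lies at chr17:24426641-24439348 on the plus strand and Eci2 (ENSMUSG00000021417) at chr13:34977748-35027096 on the minus strand. Decr1 (ENSMUSG00000028223) lies at chr4:15917240-15945507 on the minus strand and Ech1 (ENSMUSG00000053898) at chr7:28825217-28832247 on the plus strand. The paralog Eci3 lies beside Eci2 at chr13:34946614-34963810, and 209 of the 5673 stretches of 31 bases in Eci2 transcripts (3.68%) recur in Eci3, while Eci1, Decr1 and Ech1 share none with it. Counting can split reads between such a pair, and Eci3 had 0 to 5 counts per library. The antisense gene Gm16984, which overlaps the 3' end of Eci2, had 0 to 2 counts.

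The promoters of 3 of the 4 genes are printed to show how far they carry the element that PPAR and RXR bind together, a pair of AGGTCA half-sites 1 base apart. Each sequence is from RefSeq (GRCm38.p6), runs 5′ to 3′ in the gene's direction and covers 250 bases before the start site and 50 after it. The capitals mark a window with the most matching letters on either strand, 1 of 3 equal windows in Eci1 and 1 of 2 in Eci2 and in Ech1. The RefSeq start of Eci2 used here lies inside the GENCODE span of the gene.
Eci1, chr17:24426433-24426732, plus strand: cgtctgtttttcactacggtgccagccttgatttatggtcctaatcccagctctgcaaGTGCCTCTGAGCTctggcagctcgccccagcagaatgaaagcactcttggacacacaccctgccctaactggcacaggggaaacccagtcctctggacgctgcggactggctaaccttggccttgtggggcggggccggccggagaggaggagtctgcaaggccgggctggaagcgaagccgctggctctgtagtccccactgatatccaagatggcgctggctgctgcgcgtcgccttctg
Eci2, chr13:34994095-34994394, minus strand: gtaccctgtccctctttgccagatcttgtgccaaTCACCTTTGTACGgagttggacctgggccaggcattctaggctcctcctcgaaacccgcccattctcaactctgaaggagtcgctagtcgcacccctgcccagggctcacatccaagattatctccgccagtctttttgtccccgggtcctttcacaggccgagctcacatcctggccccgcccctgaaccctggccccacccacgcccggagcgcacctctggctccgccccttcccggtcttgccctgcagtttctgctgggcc
Ech1, chr7:28825088-28825387, plus strand: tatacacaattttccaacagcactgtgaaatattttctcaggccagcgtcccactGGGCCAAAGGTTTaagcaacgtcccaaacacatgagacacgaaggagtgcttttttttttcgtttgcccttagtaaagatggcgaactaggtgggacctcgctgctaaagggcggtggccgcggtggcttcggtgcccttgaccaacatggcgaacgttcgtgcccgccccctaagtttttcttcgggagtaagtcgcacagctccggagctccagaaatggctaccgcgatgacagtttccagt
The best window matched 8 of the 12 letters in all 3 promoters, and 79.8% of all 32851 promoters of this length held a window at least as good. An exact pair stood in 13 promoters (0.0396%), none of them of these genes. With AGGNCA half-sites an exact pair stood in 125 promoters (0.381%), again in none of the 3. The windows are descriptions of letters and say nothing of whether a receptor binds there or farther away.

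Averaged over the 4 genotypes, the high-fat diet raised the isomerase transcripts Eci2 and Ech1, and Eci1 and Decr1 were not called. Eci2 rose 1.45-fold (log2 fold change 0.53 ± 0.11, SE; edgeR adjusted p = 0.025). Ech1 rose 1.26-fold (0.33 ± 0.06; edgeR adjusted p = 0.0031). That is 2 of 4 genes, against 19 of 5872 tested genes (0.324%) called in either direction in this comparison. Eci1 had a log2 fold change of 0.13 (95% interval -0.07 to 0.33) and Decr1 one of 0.10 (-0.07 to 0.27), with edgeR adjusted p = 0.77 and 0.80. Both calls held with any 1 library left out. In runs 1 and 3 alone the log2 fold changes were 0.50 ± 0.19 for Eci2 and 0.27 ± 0.11 for Ech1, and in runs 2 and 4 they were 0.57 ± 0.13 and 0.40 ± 0.07, none of them called with 16 libraries (edgeR adjusted p = 0.062 to 0.48). Markers of other crypt cells moved with this contrast: 8 of 8 Paneth markers (median log2 fold change 0.64), 7 of 7 goblet markers (0.42) and 7 of 10 enterocyte markers (0.29, 1 called) were higher on HF, and 1 of 12 stem cell markers was (-0.17). Their part in the rise of Eci2 and Ech1 was not tested, and in bulk RNA more cells of a type and more RNA per cell cannot be told apart.

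**Figure D1:**
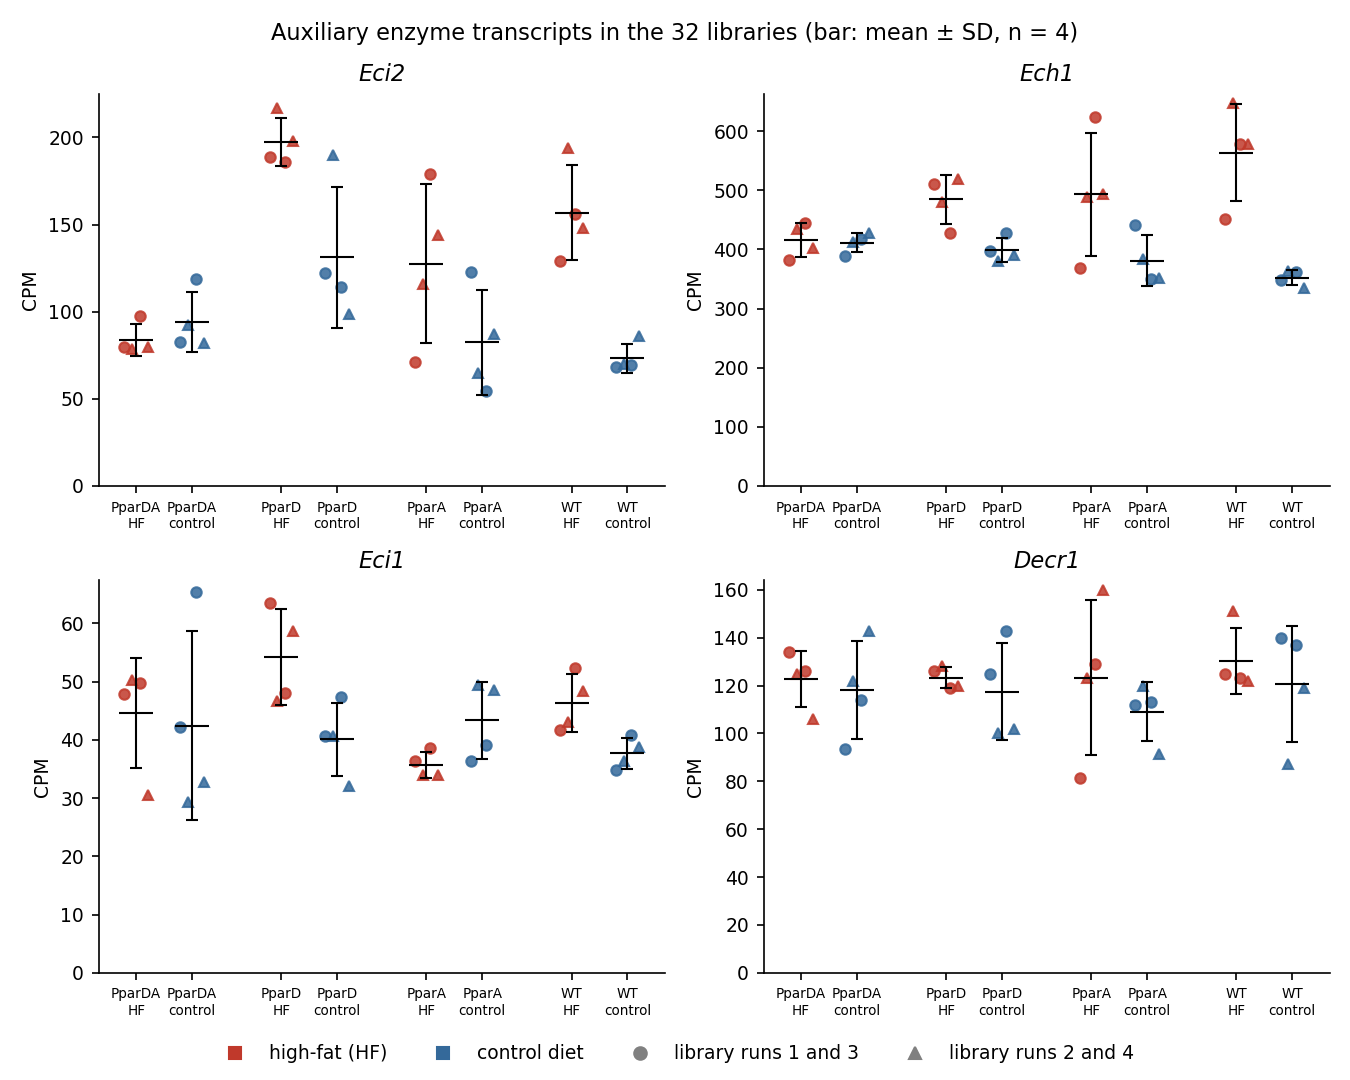
Level of each transcript (CPM, linear axis from 0) in each of the 32 libraries, with mean ± SD of the 4 libraries per group; red is high-fat and blue control diet, circles are runs 1 and 3 and triangles runs 2 and 4. In WT the 4 high-fat libraries stand above the 4 control libraries for Eci2, Ech1 and Eci1, whereas in PparDA the high-fat and control libraries of Eci2 lie between 78.4 and 119 CPM.

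In WT mice the diet effect was largest in size for Eci2, an isomerase found in both peroxisomes and mitochondria that moves a misplaced double bond into the position the cycle needs. Eci2 stood at 129, 194, 156 and 148 CPM in WT HF libraries (90 to 131 counts), against 68.2, 69.8, 69.5 and 85.9 CPM in WT control libraries (46 to 60 counts). All 4 HF libraries lay above all 4 control libraries. The mean was 157 ± 27.3 CPM on HF and 73.4 ± 8.40 CPM on control diet (SD, n = 4 each), a 2.13-fold rise (log2 fold change 1.09 ± 0.23; edgeR adjusted p = 0.04).

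Ech1, the dienoyl-CoA isomerase that rearranges a pair of double bonds, rose as well in WT. Its level was 451, 648, 578 and 578 CPM in WT HF libraries and 349, 364, 361 and 335 CPM in WT control libraries. The groups did not overlap, and the control libraries were tightly spaced. The mean was 564 ± 81.9 CPM on HF and 352 ± 13.1 CPM on control diet (SD, n = 4 each), which is 1.60-fold (log2 fold change 0.67 ± 0.12; edgeR adjusted p = 0.015).

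Eci1, the mitochondrial isomerase related to Eci2, and Decr1, the NADPH-dependent dienoyl-CoA reductase of mitochondria, were not called in WT. Eci1 stood at 41.7, 43.0, 52.4 and 48.3 CPM in WT HF libraries, against 34.8, 36.4, 40.8 and 38.7 CPM in WT control libraries. These groups did not overlap either, but they rest on 29 to 37 counts per HF library and 25 to 27 per control library (log2 fold change 0.30 ± 0.19; edgeR adjusted p = 0.8). Decr1 stood at 125, 151, 123 and 122 CPM in WT HF libraries, against 140, 87.3, 137 and 119 CPM in WT control libraries, and these groups overlapped (0.10 ± 0.16; edgeR adjusted p = 0.94).

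In WT the diet thus gave calls for 2 of the 4 genes, against 6 of 5872 tested genes (0.102%), and non-overlapping groups for 3 of the 4, against 250 tested genes (4.26%) in either direction. The Eci2 call was lost without any 1 of libraries 1, 9, 10, 17, 18, 25 and 26 (edgeR adjusted p = 0.053 to 0.26) and the Ech1 call without 9, 10, 17 or 25 (0.053 to 0.13), while the log2 fold changes stayed at 0.97 to 1.17 and 0.61 to 0.77. In runs 1 and 3 alone they were 1.05 ± 0.38 and 0.54 ± 0.21, and in runs 2 and 4 they were 1.14 ± 0.26 and 0.82 ± 0.14, none called (edgeR adjusted p = 0.055 to 0.54).

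Markers of other crypt cells moved in the same libraries. The 8 Paneth cell markers summed to 6020 to 38100 CPM in WT HF libraries and 3290 to 13700 CPM in WT control libraries, with 8 of 8 higher and none called. The 7 goblet markers summed to 2780 to 6050 CPM in WT HF libraries and 1560 to 4320 CPM in WT control libraries, with 7 of 7 higher and none called. The 10 enterocyte markers summed to 751 to 1180 CPM in WT HF libraries and 556 to 834 CPM in WT control libraries, with 6 of 10 higher and none called. The 12 stem cell markers summed to 11700 to 13700 CPM in WT HF libraries and 8580 to 13700 CPM in WT control libraries, with 4 of 12 higher and none called. The 6 enteroendocrine markers summed to 27 to 99.3 CPM in WT HF libraries and 15.8 to 59.7 CPM in WT control libraries, with all 3 tested higher and none called. Olfm4, at 7060 to 13100 CPM over the 32 libraries, made up most of the stem cell sum. The median log2 fold changes in WT were 1.53 for Paneth, 0.61 for goblet, 0.06 for enterocyte and -0.29 for stem cell markers. For the tested enteroendocrine markers the median was 1.06. The part of these cells in the WT result was not tested either.

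**Figure D2:**
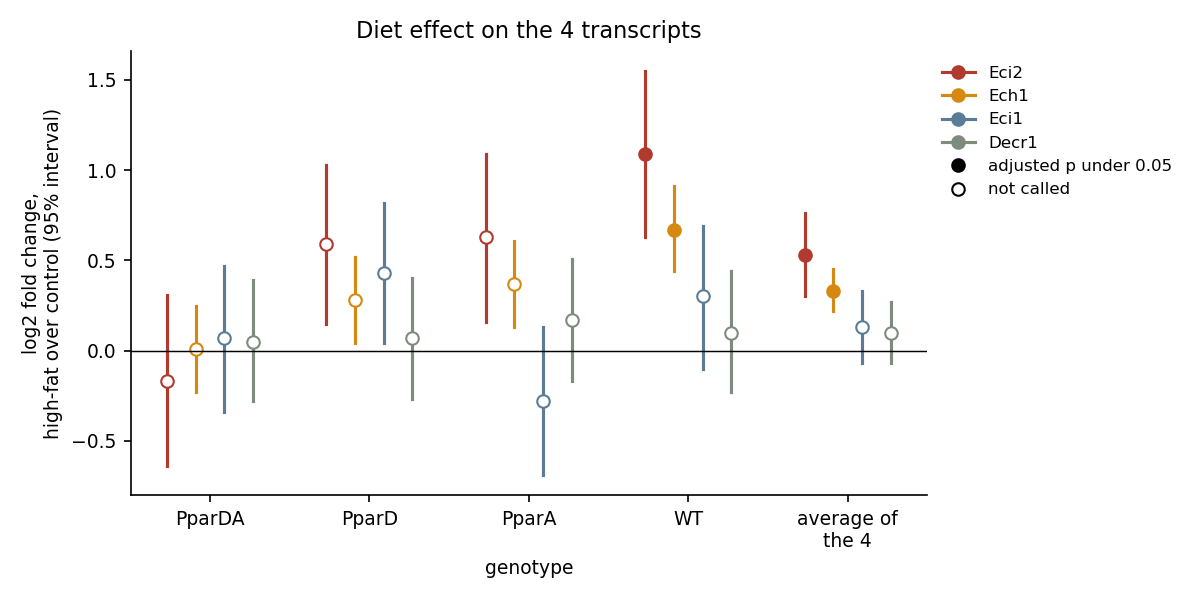
Log2 fold change, high-fat over control diet, of the 4 transcripts in each genotype and averaged over the 4 genotypes; points are edgeR estimates, bars 95% intervals, filled points have an adjusted p under 0.05. Filled points occur for Eci2 and Ech1 in WT (1.09 and 0.67) and in the average (0.53 and 0.33), and in PparDA all 4 intervals include 0.

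In PparD mice none of the 4 genes was called, against 5 of 5872 (0.0851%). Eci2 stood at 189, 217, 186 and 198 CPM in PparD HF libraries, against 122, 190, 114 and 98.9 CPM in PparD control libraries. Library 11, a control, lay within the HF range, and the other 3 controls lay below it (log2 fold change 0.59 ± 0.22; edgeR adjusted p = 0.79). Ech1 stood at 511, 481, 428 and 519 CPM in PparD HF libraries, against 398, 381, 427 and 390 CPM in PparD control libraries. The groups of Ech1 met without overlapping (0.28 ± 0.12; edgeR adjusted p = 0.93), which makes 1 of 4 genes, against 3.41% of tested genes. Eci1 ranged over 46.6 to 63.5 CPM on HF and 32 to 47.3 CPM on control diet, and Decr1 over 119 to 128 CPM on HF and 100 to 143 CPM on control diet.

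In PparA mice again none of the 4 was called, against 8 of 5872 (0.136%). Among the HF groups, PparA had the widest spread for Eci2, Decr1 and Ech1 (SD 45.3, 32.3 and 104 CPM) and the narrowest for Eci1 (2.25 CPM). Eci2 stood at 71.2, 116, 179 and 144 CPM in PparA HF libraries, against 123, 64.8, 54.7 and 87.0 CPM in PparA control libraries. Library 6 was the lowest HF library and library 5 the highest control library, so that the diet order was turned round in run 1 alone (log2 fold change 0.63 ± 0.23; edgeR adjusted p = 0.7). Without library 5 the log2 fold change was 0.88 and without library 22 it was 0.43, neither called. Ech1 ranged over 369 to 624 CPM on HF and 350 to 441 CPM on control diet (0.37 ± 0.12; edgeR adjusted p = 0.51). Eci1 was at 33.9 to 38.6 CPM on HF and 36.3 to 49.4 CPM on control diet, the only negative diet estimate of Eci1 (-0.28 ± 0.20; edgeR adjusted p = 0.93). No gene of the 4 had separate groups in PparA, where 2.96% of tested genes did.

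In PparDA mice the diet estimates of all 4 genes were close to 0, none was called, and the background was 2 of 5872 (0.0341%). Eci2 stood at 79.8, 78.4, 97.8 and 79.6 CPM in PparDA HF libraries, against 82.8, 92.5, 119 and 82.1 CPM in PparDA control libraries. The HF libraries lay within or just below the control range (log2 fold change -0.17, 95% interval -0.64 to 0.31; edgeR adjusted p = 0.9). Ech1 stood at 382, 434, 444 and 403 CPM in PparDA HF libraries, against 389, 413, 417 and 427 CPM in PparDA control libraries (0.01, interval -0.23 to 0.25; edgeR adjusted p = 0.99). The interval of Ech1 leaves out the WT estimate of 0.67, and that of Eci2 leaves out the WT estimate of 1.09. The WT estimates have errors of their own, so this is no test of a difference between genotypes. The direct comparison of the responses, given below, was not called for either gene. Groups of all 4 genes overlapped in PparDA, where 4.29% of tested genes had separate groups. Paneth and goblet markers, higher on HF in WT, were not so in PparDA, where 1 of 8 and 0 of 7 had a positive diet estimate. In PparD 7 of 8 and 6 of 7 were positive (medians 0.30 and 0.74), and in PparA 7 of 8 and 7 of 7 (1.15 and 0.70). Enterocyte markers were positive for 8 of 10 in PparDA (median 0.32), 8 of 10 in PparD (0.58) and 6 of 10 in PparA (0.36). None of these markers was called, and their part in the diet estimates was not tested. Paneth markers summed to 7930 to 15300 CPM in PparDA HF libraries and 3000 to 34600 CPM in PparDA control libraries, and goblet markers to 3460 to 7740 CPM in PparDA HF libraries and 2780 to 6600 CPM in PparDA control libraries.

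**Figure D3:**
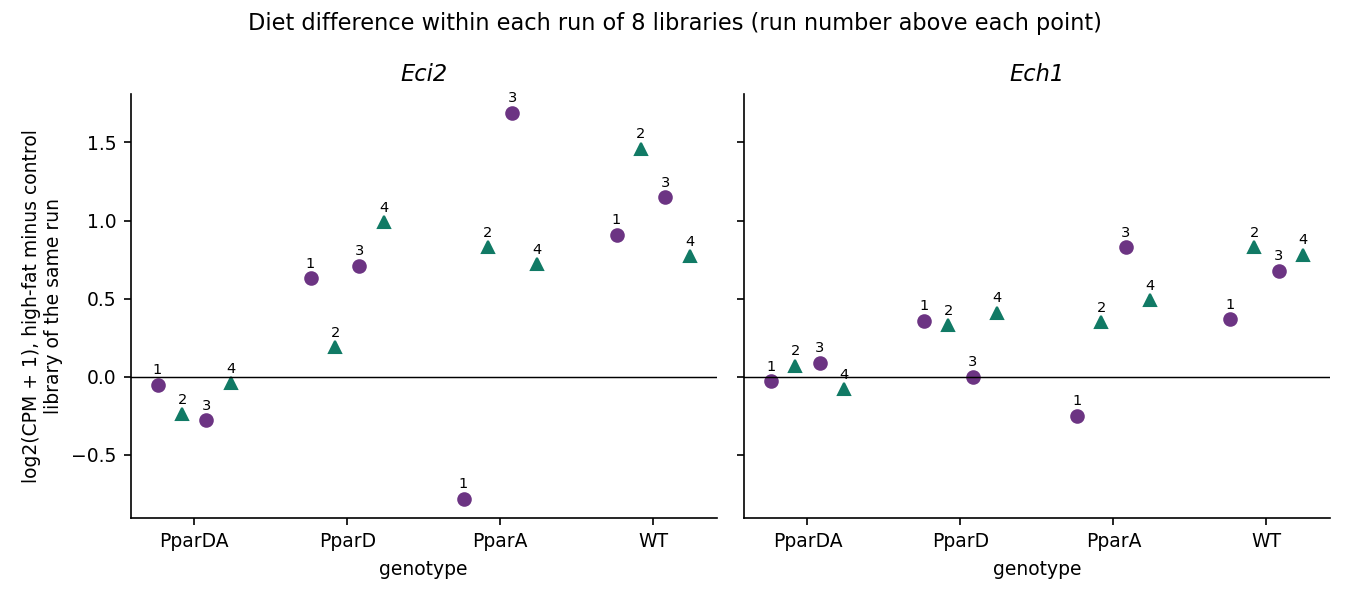
Difference in log2(CPM + 1), high-fat minus control library of the same run of 8 library numbers, for Eci2 and Ech1 in each genotype; each point is 1 run, numbered, circles are runs 1 and 3 and triangles runs 2 and 4. In WT the points of Eci2 lie between 0.77 and 1.46 and in PparDA between -0.28 and -0.04.

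Taken run by run, the HF library of Eci2 exceeded the control library in 4 of 4 runs in WT and in PparD and in 3 of 4 in PparA, but in 0 of 4 in PparDA. The within-run differences of log2(CPM + 1) were -0.28 to -0.04 in PparDA, 0.19 to 0.99 in PparD, -0.78 to 1.69 in PparA and 0.77 to 1.46 in WT. For Ech1 they were -0.08 to 0.09 in PparDA, 0 to 0.41 in PparD, -0.25 to 0.83 in PparA and 0.37 to 0.83 in WT. Eci1 was higher on HF in 4 of 4 runs in WT and in PparD, in 2 of 4 in PparDA and in 0 of 4 in PparA. Decr1 was higher on HF in 2 of 4 runs in WT and in 3 of 4 in each mutant.

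The diet responses of the mutants were then set against that of WT, which all 3 comparisons share. In PparDA the response of Eci2 was smaller by 1.26 on the log2 scale (-1.26 ± 0.32; unadjusted p = 0.00054, edgeR adjusted p = 0.44). That of Ech1 differed by -0.66 ± 0.16 (unadjusted p = 0.00037, edgeR adjusted p = 0.43). None of the 4 genes was called, and edgeR called 0 of 5872 genes (0%) in this comparison, with 339 at an unadjusted p under 0.05 and 1 called by DESeq2. Without the filter on low counts, which raises the genes tested to 21299, Eci2 was called (edgeR adjusted p = 0.00067), among 71 genes called under that setting. The estimates for Eci2 were -1.24 ± 0.54 in runs 1 and 3 and -1.28 ± 0.38 in runs 2 and 4, and those for Ech1 were -0.51 ± 0.30 and -0.82 ± 0.20. The same contrast was positive for 0 of 8 Paneth markers (median -2), 0 of 7 goblet markers (-0.61), 0 of 3 tested enteroendocrine markers (-0.85) and 7 of 10 enterocyte markers (0.30), none of them called. Their part in the result was not tested.

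For PparD the differences from the WT response were -0.50 ± 0.31 for Eci2, -0.39 ± 0.16 for Ech1, 0.14 ± 0.27 for Eci1 and -0.03 ± 0.23 for Decr1. None was called (edgeR adjusted p = 1 for each), against 3 of 5872 genes (0.0511%). For PparA they were -0.46 ± 0.32 for Eci2, -0.30 ± 0.16 for Ech1, -0.57 ± 0.28 for Eci1 and 0.07 ± 0.23 for Decr1, with none called (edgeR adjusted p = 0.61 to 0.97), against 9 of 5872 genes (0.153%). For Eci2 the 95% intervals of the difference were -1.14 to 0.14 in PparD and -1.12 to 0.19 in PparA, and for Ech1 -0.73 to -0.06 and -0.64 to 0.03.

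On the high-fat diet itself, PparDA cells held less Eci2 and Ech1 than WT cells. Eci2 averaged 83.9 ± 9.30 CPM in PparDA HF libraries and 157 ± 27.3 CPM in WT HF libraries (SD, n = 4 each), with no overlap (log2 fold change -0.90 ± 0.23; edgeR adjusted p = 0.035). Ech1 averaged 416 ± 28.8 CPM in PparDA HF libraries and 564 ± 81.9 CPM in WT HF libraries (SD, n = 4 each), also with no overlap (-0.44 ± 0.12; edgeR adjusted p = 0.048). These are 2 of 4 genes, against 92 of 5872 (1.57%) called and 464 (7.90%) with separate groups. Eci1 and Decr1 had log2 fold changes of -0.05 and -0.08.

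The Eci2 call against WT was lost without any 1 of libraries 8, 10, 16, 18, 25 and 32 (edgeR adjusted p = 0.057 to 0.12) and the Ech1 call without 8, 10, 16, 18, 24, 25 or 32 (0.065 to 0.17). In runs 1 and 3 the log2 fold changes were -0.69 ± 0.38 for Eci2 and -0.33 ± 0.21 for Ech1, and in runs 2 and 4 they were -1.11 ± 0.26 and -0.54 ± 0.14, none called. Enterocyte markers summed to 889 to 1890 CPM in PparDA HF libraries and 751 to 1180 CPM in WT HF libraries. Of these markers 9 of 10 were higher in PparDA (median log2 fold change 2.18) and none was called. Paneth markers summed to 7930 to 15300 CPM in PparDA HF libraries and 6020 to 38100 CPM in WT HF libraries. Of these 1 of 8 was higher (median -0.88), as were 5 of 7 goblet markers (0.32), none called. Their part in the result was not tested.

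Eci2 also separated the double mutant from PparD mice on the high-fat diet. It was at 78.4 to 97.8 CPM in PparDA HF libraries and 186 to 217 CPM in PparD HF libraries, with no overlap (log2 fold change -1.23 ± 0.22; edgeR adjusted p = 0.0026). This call held with any 1 library left out (0.0053 to 0.015) and in runs 2 and 4 (-1.38 ± 0.26; 0.018), but not in runs 1 and 3 (-1.08 ± 0.37; 0.31). Ech1 was not called (-0.22 ± 0.12; edgeR adjusted p = 0.47), so 1 of 4 genes passed, against 93 of 5872 (1.58%) called and 469 (7.99%) with separate groups. Against PparA on HF, Eci2 in PparDA differed by -0.60 ± 0.23 (edgeR adjusted p = 0.23) and Ech1 by -0.25 ± 0.12 (0.36), with none of 4 called, against 0.272% of tested genes. The 3 comparisons share the PparDA HF libraries. Against PparD on HF, 9 of 10 enterocyte markers (median log2 fold change 2.12), 7 of 7 goblet markers (0.93) and 7 of 8 Paneth markers (0.50) were higher in PparDA, none called. Enterocyte markers summed to 889 to 1890 CPM in PparDA HF libraries and 867 to 1030 CPM in PparD HF libraries, and their part in the lower Eci2 was not tested.

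In the single mutants on HF, none of the 4 differed from WT by the test. In PparD the log2 fold changes were 0.33 ± 0.21 for Eci2 and -0.22 ± 0.12 for Ech1, with a background of 1 of 5872 genes (0.017%). In PparA they were -0.30 ± 0.22 for Eci2 and -0.19 ± 0.12 for Ech1, with a background of 44 genes (0.749%). Over both single mutants, Eci1 and Decr1 lay between -0.37 and 0.23. In PparD 0 of 8 Paneth (median -1.58), 0 of 7 goblet (-0.59) and 4 of 10 enterocyte markers (-0.09) were higher than in WT. In PparA 2 of 8 Paneth (-0.31), 5 of 7 goblet (0.40) and 9 of 10 enterocyte markers (2.62) were higher. None of these markers was called, and their part was not tested.

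On the control diet none of the 4 was called in any mutant. The nearest was Eci2 in PparD, at 131 ± 40.4 CPM in PparD control libraries and 73.4 ± 8.40 CPM in WT control libraries (SD, n = 4 each), where the lowest PparD library, at 98.9 CPM, stood above the highest WT library, at 85.9 CPM. Its log2 fold change was 0.83 ± 0.23 (edgeR adjusted p = 0.21; DESeq2 adjusted p = 0.048), with a background of 12 of 5872 genes (0.204%). Ech1 did not overlap with WT either, at 381 to 427 CPM in PparD control libraries and 389 to 427 CPM in PparDA control libraries, against 335 to 364 CPM in WT control libraries. Separate groups thus occurred for 2 of the 4 genes in PparD, against 228 of 5872 tested genes (3.88%), and for 1 of 4 in PparDA, against 459 (7.82%). In PparD 0 of 10 enterocyte (median -0.32), 0 of 7 goblet (-0.65) and 1 of 8 Paneth markers (-0.24) were higher than in WT, and 8 of 12 stem cell markers (0.12), none called. In PparDA 10 of 10 enterocyte (2.04), 7 of 7 goblet (0.98, 2 called) and 8 of 8 Paneth markers (1.11) were higher, and 6 of 12 stem cell markers. In PparA 10 of 10 enterocyte (2.32), 4 of 7 goblet (0.11) and 6 of 8 Paneth markers (0.24) were higher, none called. Their part in these results was not tested. In PparA Eci2 differed from WT by 0.17 ± 0.23 and Ech1 by 0.11 ± 0.12 (background 0.562%), and in PparDA by 0.36 ± 0.23 and 0.22 ± 0.12 (background 1.87%).

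Averaged over Ppard state and diet, Ppara-null libraries held less Eci2 (log2 fold change -0.46 ± 0.11; edgeR adjusted p = 0.0087). That is 1 of 4 genes, in a comparison where 445 of 5872 genes (7.58%) were called, among them 8 of 10 enterocyte markers and 4 of 7 goblet markers, all higher. The part of these cells in the result was not tested. The estimate was -0.28 ± 0.19 in runs 1 and 3 (edgeR adjusted p = 0.68) and -0.63 ± 0.13 in runs 2 and 4 (0.0079), and the call held with any 1 library left out. The average joins unlike diets. Against WT, Eci2 was 0.17 in PparA and 0.36 in PparDA on control diet, both above 0, and -0.30 and -0.90 on HF. The average also takes in PparD, where Eci2 was above WT by 0.83 on control diet and 0.33 on HF. Averaged over Ppara state and diet, Ppard-fl/fl libraries gave no call among the 4 (Eci2 0.19 ± 0.11; edgeR adjusted p = 0.52), against 56 of 5872 genes (0.954%).

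Over all 8 groups Eci2 ran from 73.4 ± 8.40 CPM in WT control to 198 ± 13.8 CPM in PparD HF, with WT HF second at 157 ± 27.3 CPM, followed by PparD control (131 ± 40.4), PparA HF (127 ± 45.3), PparDA control (94.0 ± 17.1), PparDA HF (83.9 ± 9.30) and PparA control (82.3 ± 30.1). Ech1 was lowest in WT control (352 ± 13.1 CPM) and highest in WT HF (564 ± 81.9 CPM), with PparA HF at 494 ± 104 CPM and PparD HF at 485 ± 41.2 CPM next. The 2 PparDA groups of Ech1 stood together at 416 ± 28.8 CPM on HF and 411 ± 16.2 CPM on control diet. Decr1 spanned only 109 ± 12.5 CPM in PparA control to 130 ± 13.9 CPM in WT HF, and Eci1 35.7 ± 2.25 CPM in PparA HF to 54.2 ± 8.24 CPM in PparD HF. Neighbours in the 4 orders were compared by exact permutation tests (two-sided, p = 0.0857 to 1, adjusted p of at least 0.985). The ranges of all neighbours overlapped. Neighbours were picked by sorting on the same means, so they lie close by construction. With 4 libraries against 4, p can reach 0.0286 at the least, which passes adjustment only if many pairs reach it. These tests therefore cannot decide whether neighbouring groups differ, and no conclusion is drawn from them.

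Between libraries of 1 group, Eci2 and Ech1 tended to be high or low together. After group means were removed, their log2(CPM + 1) values correlated over the 32 libraries with r = 0.626 (permutation within groups, p = 0.0066; adjusted over 6 pairs of genes, 0.04) and rho = 0.412 (permutation p = 0.041; adjusted 0.12). Without the 2 libraries farthest from the median of Eci2, r was 0.443. Libraries 5, 6, 21 and 22, all PparA libraries, lay far out for Eci2 and deviated in the same direction for Ech1. Library 21 did so only slightly for Ech1 (-0.115). In runs 1 and 3 alone r was 0.872 and rho 0.797 (exact permutation p = 0.039 for each), and in runs 2 and 4 r was -0.21 and rho -0.259 (exact permutation p = 0.49 and 0.51), so the relation did not hold in both. Decr1 and Ech1 had r = 0.471 (permutation p = 0.044; adjusted 0.13) and rho = 0.394 (0.036; adjusted 0.12), and the other 4 pairs had r of 0.0202 to 0.249.

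**Figure D4:**
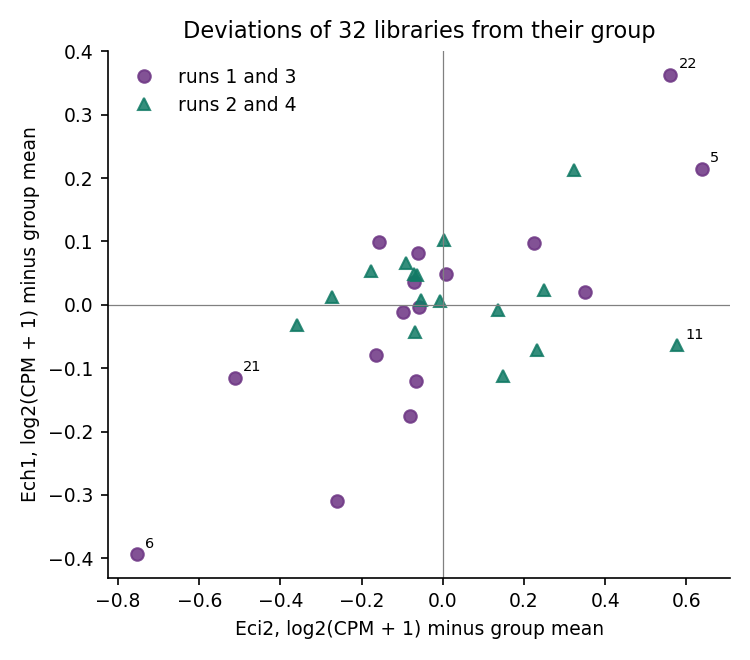
Deviation of each of the 32 libraries from its group mean, in log2(CPM + 1), for Eci2 (x axis) and Ech1 (y axis); circles are runs 1 and 3, triangles runs 2 and 4, and numbers name the libraries farthest out for Eci2. Libraries 5 and 22 lie high and libraries 6 and 21 low for both genes, all 4 of them PparA libraries from runs 1 and 3. Library 11, a PparD control, lies high for Eci2 (0.576) but not for Ech1 (-0.064).

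Over the 8 group means, the tested gene most like Eci2 was Hadhb (r = 0.963), which encodes the thiolase subunit of the mitochondrial trifunctional protein. Blmh (0.963), Npm3 (0.963), Coq3 (0.961), which acts in coenzyme Q synthesis, and Dhrs4 (0.941) followed. Nearest to Ech1 were Snrnp25 (0.956), Trpm7 (0.933), Orc6 (0.925), St3gal6 (0.916) and the Paneth defensin Defa21 (0.912). Nearest to Eci1 were Fkbp2 (0.944), the respiratory chain genes Cox5b (0.942) and Cox7b (0.934), Btf3 (0.936) and the ribosomal protein gene Rpl13 (0.934). Nearest to Decr1 were the haem synthesis gene Urod (0.970), Gdpd1 (0.943), Emc6 (0.936), Ppat (0.905) and Glrx2 (0.903). Each was among the best of 5316 genes averaging 10 CPM or more, over only 8 points, so high values follow from the choice. Among the 4 themselves, Eci2 and Ech1 had r = 0.798 over the 8 means and Eci1 and Decr1 had r = 0.354.

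Of 34 other genes of mitochondrial and peroxisomal oxidation, 24 were tested, and 4 rose and none fell with the diet averaged over genotypes. These were Acaa2, a mitochondrial thiolase (0.48 ± 0.08 in log2 fold change; edgeR adjusted p = 0.0016), Acadl, the long-chain acyl-CoA dehydrogenase (1.07 ± 0.19; 0.0031), Etfb, a subunit of the electron-transfer flavoprotein (0.30 ± 0.06; 0.013), and Hadha, the other subunit of the trifunctional protein (0.40 ± 0.09; 0.028). They are 4 of 24 genes, against 0.324% of all tested genes called in either direction. The median log2 fold change of the 24 was 0.21, against -0.01 over all tested genes. In WT, Acaa2 (0.80 ± 0.16; edgeR adjusted p = 0.035) and Acadvl, the very long-chain acyl-CoA dehydrogenase (0.91 ± 0.19; 0.036), rose, and the median was 0.44. These are 2 of 24 genes, against 0.102% of all tested genes. The medians were -0.03 in PparDA, 0.11 in PparD and 0.28 in PparA, with no gene of the 24 called in these genotypes.

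Acadvl gave values like those of Eci2 in the double mutant. It was at 60.9 ± 5.80 CPM in PparDA HF libraries and 141 ± 30.9 CPM in WT HF libraries (SD, n = 4 each; log2 fold change -1.21 ± 0.19; edgeR adjusted p = 0.00036). That is 1 of 24 genes called, against 1.57% of all tested genes. The diet response of Acadvl in PparDA differed from that in WT by -1.14 ± 0.27 (edgeR adjusted p = 0.43). Against PparD on HF, Acadvl (-1.33 ± 0.19; edgeR adjusted p = 0.00011) and the carnitine carrier gene Slc25a20 (-1.12 ± 0.27; 0.026) were lower in PparDA, beside Eci2. These are 2 of 24 genes, against 1.58% of all tested genes. Averaged over Ppard state and diet, Acadvl, Slc25a20 and the peroxisomal gene Hsd17b4 fell in Ppara-null libraries (-0.63 ± 0.09, -0.54 ± 0.14 and -0.35 ± 0.08; edgeR adjusted p = 2.5e-05, 0.017 and 0.0075). These are 3 of 24 genes, in a comparison that called 7.58% of all genes, and 12 of the 24 had a positive estimate, with a median of -0.01. Other comparisons had calls in the other direction only, and those genes are counted but not named here. On control diet 2 of the 24 were higher in PparDA than in WT (21 positive, median 0.26), against 1.87% of tested genes called. In PparD 1 was higher than in WT on control diet (20 positive, median 0.40), against 0.204%. Averaged over Ppara state and diet, 3 were higher in Ppard-fl/fl libraries (18 positive, median 0.15), against 0.954%.

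The peroxisomal relatives of the 4 enzymes were not called for the diet. Decr2, the peroxisomal dienoyl-CoA reductase, was at 29.6 to 55.2 CPM in WT HF libraries and 20.0 to 32.1 CPM in WT control libraries (log2 fold change 0.49 ± 0.25; edgeR adjusted p = 0.66). Pecr, the peroxisomal trans-enoyl-CoA reductase, was at 34.0 to 55.4 CPM in WT HF libraries and 34.4 to 57.4 CPM in WT control libraries (-0.01 ± 0.21; edgeR adjusted p = 1).

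**Figure D5:**
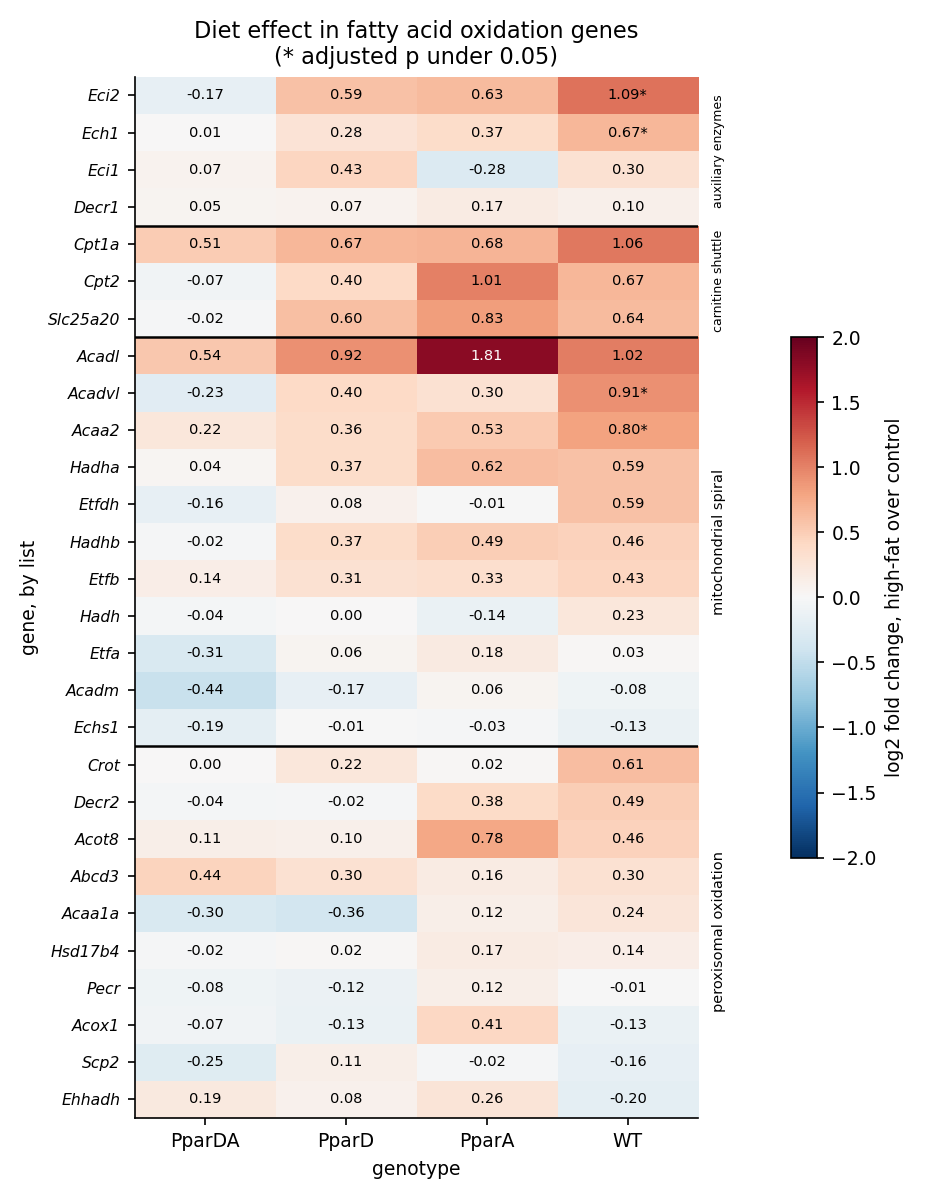
Log2 fold change, high-fat over control diet, of the 4 auxiliary enzyme genes and of the 24 tested genes of the carnitine shuttle, the mitochondrial cycle and peroxisomal oxidation (rows) in each genotype (columns); an asterisk marks an edgeR adjusted p under 0.05. Asterisks occur in WT only, for Eci2, Ech1, Acadvl and Acaa2, and the median of the 24 is 0.44 in WT and -0.03 in PparDA.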

How the data were processed

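The authors deposited expected counts, rounded to whole numbers, and log2(CPM + 1) values per gene for 32 libraries; per the submitters' processing notes Salmon 1.1.0, edgeR 3.30.2 and R 4.0.2 were used with mm10. The log2 values deposited served only as a check: taken back to counts, they were within 0.34 counts of the count table for the 4 genes. Groups came from the labels, matched to column names. The 4 genes, the other lists and the tests were chosen with earlier results of these data known.

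Genes with a minimum count of 10 and a total of 15 (filterByExpr, edgeR 4.0.16, R 4.3.3) were kept. These held 97.1 to 97.7% of 612672 to 724155 counts per library, and 322 identifiers had no symbol. Scaled by TMM factors (0.938 to 1.07), all 32 libraries entered glmQLFit with a term for each group; the biological coefficient of variation was 21.7%. Tests were two-sided, adjusted by Benjamini-Hochberg within each comparison and called at 0.05. CPM uses whole library totals. Named genes were the 4, their paralogs, called oxidation genes (up to 4 per comparison, by smallest p) and the 5 genes most like each of the 4 over group means. Called oxidation genes were counted but not named for PparDA and PparD against WT on control diet and for the average over Ppara state and diet. Alternatives were other factors, filters, DESeq2 1.42.0, limma-trend, a run block, runs apart and libraries left out. The method was tested on simulated data.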

Additional observations from a re-analysis of the deposited data

Results flagged for a closer look

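In 4 of the 32 sets of 4 libraries (each of 4 genes in each of 8 groups), 1 library stood apart from the other 3 by a gap that took up most of the range, where chance does so in about 1 in 20 sets. Eci1 was 30.6 CPM in library 32 of PparDA HF, against 47.9 to 50.2 CPM in the other 3. Eci2 was 97.8 CPM in library 24 of PparDA HF, against 78.4 to 79.8 CPM in the others, and this library still lay below all WT HF libraries. Eci2 was 85.9 CPM in library 26 of WT control, against 68.2 to 69.8 CPM in the others. Decr1 was 151 CPM in library 10 of WT HF, against 122 to 125 CPM in the others.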

How the results depend on the processing

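The 2 calls for the diet averaged over genotypes, and those of Eci2 for PparDA against PparD on HF and for Ppara-null libraries, held with any 1 library left out and under every other factor, filter and tool tried; they were lost only with the runs taken apart. With 16 libraries the number of the 4 genes called was 0 for the averaged diet effect, the diet in WT and PparDA against WT on HF, in runs 1 and 3 and in runs 2 and 4. It was also 0 in runs 1 and 3 for PparDA against PparD on HF and for Ppara-null libraries. In runs 1 and 3 the log2 fold changes were 0.50 (Eci2) and 0.27 (Ech1) for the averaged diet effect, 1.05 and 0.54 for WT, -0.69 and -0.33 for PparDA against WT on HF, -1.08 (Eci2) against PparD and -0.28 (Eci2) in Ppara-null libraries. In runs 2 and 4 they were 0.57 and 0.40, 1.14 and 0.82, and -1.11 and -0.54. Signs turned only in estimates that were never called. Decr1 in runs 1 and 3 was -0.02 for the averaged diet effect, -0.16 in WT, -0.13 in PparD and -0.10 in PparA, and -0.19 in PparDA in runs 2 and 4. Eci1 in PparDA was -0.15 in runs 1 and 3, Ech1 in PparDA was 0 in runs 2 and 4 and with the 2 groups fitted alone, and Eci2 for PparA against WT on control diet was -0.03 in runs 2 and 4. The cause was not tested.

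With the 2 groups fitted alone, Ech1 was no longer called for the diet in WT (0.67, 1 of 4 genes called) or for PparDA against WT on HF (-0.43, 1 of 4). The second was lost too without a filter (-0.46), at 1 CPM in 4 libraries (-0.45) and with limma-trend (-0.43), with 1 of 4 called in each. Without a filter 1 gene, Eci2, was called for the diet response of PparDA minus WT and, as with DESeq2, for PparD against WT on control diet. Left-out libraries gave 0 to 2 calls for the diet in WT (Eci2 0.97 to 1.17, Ech1 0.61 to 0.77, Decr1 -0.03 to 0.20) and 0 to 2 for PparDA against WT on HF (Eci2 -0.98 to -0.78, Ech1 -0.53 to -0.37). They gave 0 to 0.18 for Decr1 in PparD, -0.09 to 0.35, -0.05 to 0.15 and -0.02 to 0.05 for Eci1, Decr1 and Ech1 in PparDA, and -0.08 to 0.32 for Eci2 in PparA against WT on control diet.

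With the replicate block (run of 8 library numbers) Eci2 was 1.08 and Ech1 0.67 for the diet in WT (edgeR adjusted p = 0.046 and 0.008), and no call among the 4 changed. Same-run libraries deviated together only in part (112 pairs, median r = 0.155, lowest -0.0288), though 31 of 32 libraries correlated best with 1 of their own run. Genes called overall were 2 to 99 for the diet in WT, against 6 in the fit reported, 3 to 148 for the averaged effect, against 19, and 38 to 301 for PparDA against WT on HF, against 92, the highest each time without a filter. Depth limits Eci1 most, with 20 to 44 counts per library.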
